A study of Homo sapiens with 3 samples.

Results

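The transcripts described here are those of 9 genes of MHC class I antigen presentation, chosen by gene symbol: the heavy chains HLA-B, HLA-C and HLA-E, the light chain B2M, the peptide transporter genes TAP1 and TAP2, the tapasin gene TAPBP and the immunoproteasome genes PSMB8 and PSMB9. All 9 were found among the 25270 symbols of the deposited files, and all 9 were among the 12210 genes with a mean of at least 1 FPKM over the libraries, where FPKM is fragments scaled to transcript length and to the mapped fragments of the library. HepG2 cells are an established human line from a hepatocellular carcinoma. RNA was sequenced from untreated parental cells (HepG2/wild) and from a line selected as survivors of more than 5 months in metformin (HepG2/metR). Metformin inhibits complex I of the respiratory chain, and the study describes the line as having acquired resistance to it. A further library came from HepG2/metR cells after 24 h in 40 mM oxamate, which blocks lactate dehydrogenase (HepG2/metR+oxamate). Each condition has 1 library, so no difference below has a replicate check, no p-value is given, and a gene is only said to be past a fold threshold or not. The study set the parental and HepG2/metR cells against each other to find genes that go with a lactate-rich state, and used oxamate to lower lactate. The labels give HepG2/metR as a HepG2 line, and whether it is 1 clone is not given in the sources used here.

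MHC class I molecules display peptides from proteins made inside the cell to CD8 T cells, and nearly every nucleated cell carries them. The proteasome cuts the proteins, the TAP1 and TAP2 transporter carries the peptides into the endoplasmic reticulum, and tapasin holds the empty heavy chain with B2M beside the transporter until a peptide is bound. Interferons and NF-kappa-B signalling induce most of these genes together, and many tumours lose some of them.

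The labelled liver cell type was checked against marker genes, and the libraries stood apart. In HepG2/wild, 10 of 10 hepatocyte markers were at 1 FPKM or more and summed to 22183 FPKM, whereas in both HepG2/metR libraries 2 of 10 were, with sums of 13.9 and 11.1 FPKM. Of 9 leukocyte markers, PTPRC, CD3E, MS4A1, CD2, CD53 and NKG7 were at or near 0 in all 3 libraries. CD14 was at 2.19 FPKM in HepG2/wild, 0.715 FPKM in HepG2/metR and 0.607 FPKM with oxamate. ITGAM was at 0.00898, 0.156 and 0.167 FPKM. The list's sum was 3417 FPKM in HepG2/wild, nearly all of it from LYZ, against 0.885 FPKM in HepG2/metR and 1.07 FPKM with oxamate. The sum of 8 fibroblast markers was 5.30, 61.1 and 63.7 FPKM in HepG2/wild, HepG2/metR and HepG2/metR+oxamate, and THY1 held 53.3 FPKM of it in HepG2/metR. PDGFRB was at 3.43, 3.66 and 7.26 FPKM, and LUM at 0.172, 3.25 and 6.69 FPKM. COL1A1, COL1A2 and COL3A1 were lower in HepG2/metR than in HepG2/wild, with COL1A1 at 0.494 against 1.22 FPKM. DCN and FAP were under 1 FPKM in every library. ALB was at 9206 FPKM in HepG2/wild and 0.747 FPKM in HepG2/metR, and HNF4A, a transcription factor gene that defines hepatocytes, at 68.7 and 0.0156 FPKM. The labelled origin of HepG2/metR from HepG2 could not be checked from the deposited values, and HLA genes differ in sequence between people, so every difference from HepG2/wild below is one between the libraries as labelled. The part of the lower hepatocyte transcripts in these differences was not tested. Long metformin exposure, the selection of survivors and any other difference between the cultures cannot be told apart in this design.

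Human class I promoters carry short elements for interferon regulatory factors, for NF-kappa-B, for cyclic AMP response element binding proteins and for the CCAAT-binding factor NF-Y. RefSeq held the 250 bases before the gene start for 8 of the 9 genes on GRCh38.p14, and none for HLA-E. These are reference sequences and not the alleles of the cultures. Printed here are the windows of the genes on which the results turn, that is B2M, HLA-C and PSMB9, which differed most between HepG2/wild and HepG2/metR, and their partners HLA-B and TAP1. Sequences run 5′ to 3′ on the gene's strand, and capitals mark matches on either strand to the motifs searched. These were the IRF-type motif AANNGAAA, the NF-Y motif CCAAT, the core TGACG of cyclic AMP response elements and a kappa-B motif. Matches may overlap.
HLA-B, chr6:31357180-31357429, minus strand: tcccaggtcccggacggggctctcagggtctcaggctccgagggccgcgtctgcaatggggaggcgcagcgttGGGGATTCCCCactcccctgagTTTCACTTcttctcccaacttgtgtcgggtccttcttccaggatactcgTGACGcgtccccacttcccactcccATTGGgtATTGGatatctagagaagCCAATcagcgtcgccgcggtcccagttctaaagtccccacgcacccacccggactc
HLA-C, chr6:31272093-31272342, minus strand: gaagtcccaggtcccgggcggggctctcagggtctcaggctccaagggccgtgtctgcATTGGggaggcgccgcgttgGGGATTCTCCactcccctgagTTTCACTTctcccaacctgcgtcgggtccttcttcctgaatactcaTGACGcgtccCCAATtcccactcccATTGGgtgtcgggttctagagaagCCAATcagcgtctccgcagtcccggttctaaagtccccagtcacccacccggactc
B2M, chr15:44711267-44711516, plus strand: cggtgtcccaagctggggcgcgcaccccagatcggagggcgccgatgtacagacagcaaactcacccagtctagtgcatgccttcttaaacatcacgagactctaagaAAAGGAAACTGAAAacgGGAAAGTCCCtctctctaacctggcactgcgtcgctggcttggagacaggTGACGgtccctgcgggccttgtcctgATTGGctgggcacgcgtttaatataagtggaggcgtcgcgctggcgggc
TAP1, chr6:32853705-32853954, minus strand: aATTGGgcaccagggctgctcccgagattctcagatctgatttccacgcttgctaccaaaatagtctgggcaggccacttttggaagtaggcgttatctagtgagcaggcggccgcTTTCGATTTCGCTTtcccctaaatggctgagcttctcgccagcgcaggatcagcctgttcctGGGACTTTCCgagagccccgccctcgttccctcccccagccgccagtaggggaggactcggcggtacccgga
PSMB9, chr6:32853942-32854191, plus strand: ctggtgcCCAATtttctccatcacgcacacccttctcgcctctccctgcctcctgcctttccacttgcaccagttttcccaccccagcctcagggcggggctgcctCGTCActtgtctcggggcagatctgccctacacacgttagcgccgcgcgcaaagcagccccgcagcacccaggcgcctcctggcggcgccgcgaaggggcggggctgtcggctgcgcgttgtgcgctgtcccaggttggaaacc

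The HLA-B and HLA-C windows were 89.0% identical (226 of 254 aligned columns), and both held all 4 motifs, as did that of B2M. The TAP1 and PSMB9 starts lie 488 bases apart on opposite strands, so that the far ends of their windows are the same bases read on opposite strands. TAP1 held the IRF-type, CCAAT and kappa-B motifs, and PSMB9 held CCAAT and TGACG only. RefSeq also holds a window at a further, inner start of PSMB8 and of TAP1. Those windows held none of the 4 motifs and are left out of the counts that follow. The windows counted genome-wide were not limited to outermost starts, so the shares beside them are not strictly alike. Across the 8 windows, the IRF-type motif was present in 6, against 20.3% of 35097 windows of the same length genome-wide. The CCAAT motif was present in 5 windows of the 8, against 32.0% of all windows, and its matches in TAP1 and PSMB9 are the same bases, in the stretch that both windows cover. TGACG was found in 6, against 21.2%, and the kappa-B motif in 5, against 9.95%. The motifs were picked with these sequences in view, and a match is a string of letters and not a site shown to be bound.

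Between HepG2/wild and HepG2/metR the 9 genes did not move as a block. PSMB9 was 3.53-fold higher and B2M 1.94-fold higher in HepG2/metR, HLA-C was 2.19-fold lower, and the other 6 genes differed by less than 1.5-fold. On the deposited log2(FPKM + 1) scale, 1 of 9 genes (PSMB9) was at least 2-fold higher and 1 of 9 (HLA-C) at least 2-fold lower, beside 16.6% and 17.6% of all genes kept. The median log2 change of the 9 was 0.34, with 8 above 0 and 1 below, against 0.02 for all genes kept, whose quartiles were -0.65 and 0.64. Counts of 1 in 9 are near those background shares, so the thresholds alone set nothing about these genes apart.

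**Figure D1:**
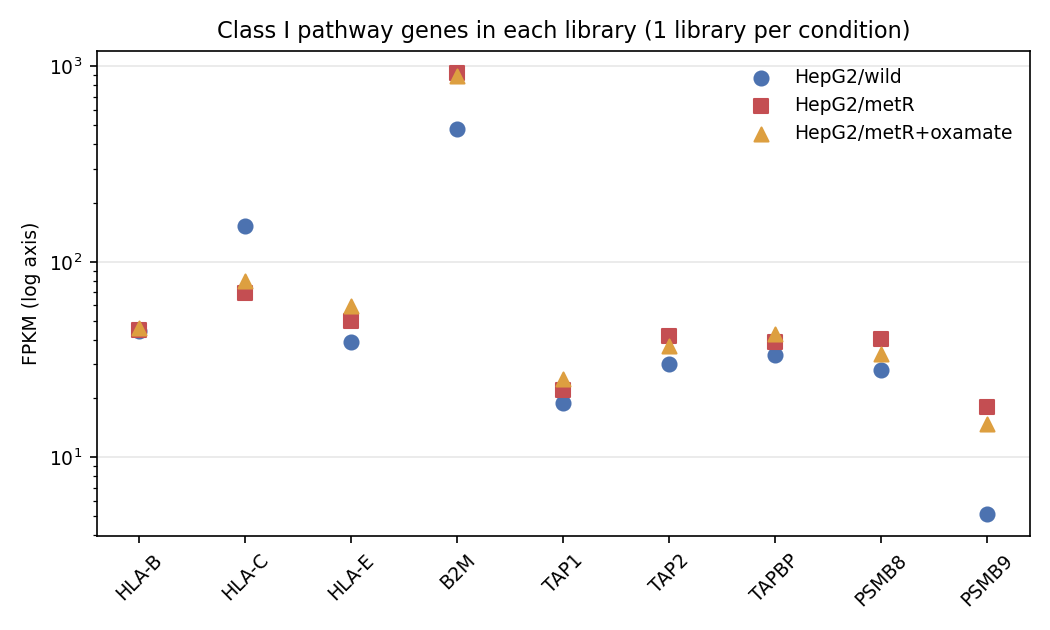
Level of each of the 9 class I pathway genes in FPKM, on a log axis, with 1 point per library: circles HepG2/wild, squares HepG2/metR, triangles HepG2/metR+oxamate. The HepG2/wild point stands away from the others for HLA-C, B2M and PSMB9, while the HLA-B points lie on top of each other between 44.5 and 46.1 FPKM.

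HLA-B encodes a classical heavy chain, one of those that present peptides to CD8 T cells. It was at 44.5 FPKM in HepG2/wild, 44.9 FPKM in HepG2/metR and 46.1 FPKM with oxamate, log2 changes of 0.01 and 0.04. No other gene of the 9 was as level over the libraries.

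HLA-C encodes another classical heavy chain, which also serves as a ligand of killer cell inhibitory receptors on NK cells. Its levels were 152 FPKM in HepG2/wild, 69.4 FPKM in HepG2/metR and 79.8 FPKM with oxamate. The log2 change from HepG2/wild to HepG2/metR was -1.12, and the further change with oxamate was 0.20, so both HepG2/metR libraries lay far below the parental level and near each other. It was the only one of the 9 that was lower in HepG2/metR. HLA-B, the other classical heavy chain of the 9, was level. Under upper-quartile scaling the log2 change of HLA-C was -0.97, just short of 2-fold. That scaling moved the median change of all genes kept to 0.150.

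HLA-E encodes a non-classical heavy chain that binds leader peptides of other class I molecules and is read by the NKG2A receptor of NK cells. It measured 39.1, 49.7 and 59.5 FPKM in HepG2/wild, HepG2/metR and HepG2/metR+oxamate. These are log2 changes of 0.34 and 0.25, upward at both steps and under the threshold at each.

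Among these 3 heavy chains, which are not all of the class I heavy chains of a cell, HLA-C was the most abundant in every library. Its share of their summed FPKM was 64.5% in HepG2/wild, 42.3% in HepG2/metR and 43.0% with oxamate. The share of HLA-B was 18.9%, 27.4% and 24.9%, and that of HLA-E was 16.6%, 30.3% and 32.1%. In HepG2/wild HLA-B stood above HLA-E, and in both HepG2/metR libraries HLA-E stood above HLA-B. The non-classical genes HLA-F, at 2.99, 3.97 and 3.51 FPKM, and HLA-G, at 2.40, 1.04 and 0.779 FPKM, were lower than the 3 throughout. HLA-G was 2.30-fold lower in HepG2/metR as a ratio of FPKM, but its change of -0.74 on the deposited log2(FPKM + 1) scale was short of 2-fold, and HLA-F passed no threshold.

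Class I genes are near-identical and polymorphic, and how the counting divided shared reads among them is not given in the sources used here, so single heavy chain values are uncertain. The sum of HLA-B, HLA-C and HLA-E was 236 FPKM in HepG2/wild, 164 FPKM in HepG2/metR and 185 FPKM with oxamate. Of the pseudogenes looked at after their values were seen, HLA-H had 7.72, 4.54 and 4.41 FPKM. HLA-J, at 0.184, 0.278 and 0.198 FPKM, and HLA-L, at 0.517, 0.945 and 1.38 FPKM, were low and went the other way in HepG2/metR.

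B2M encodes the light chain that every class I heavy chain needs to leave the endoplasmic reticulum. It was the most abundant of the 9 transcripts in each library, at 477 FPKM in HepG2/wild, 928 FPKM in HepG2/metR and 894 FPKM with oxamate. It stood above 98.6% of all genes kept in HepG2/wild and above 99.2% in HepG2/metR. The log2 change of 0.96 to HepG2/metR lay just under the 2-fold threshold. It passed at 1.03 with the libraries scaled to equal FPKM totals and at 1.11 under upper-quartile scaling. These scalings also moved the median change of all genes kept, to 0.080 and 0.150. With oxamate B2M differed by -0.05.

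The light chain and the summed HLA-B, HLA-C and HLA-E thus went opposite ways. B2M was at 2.02 FPKM for each FPKM of these 3 heavy chains in HepG2/wild, at 5.66 in HepG2/metR and at 4.82 with oxamate. Both HepG2/metR libraries held more B2M per heavy chain transcript than HepG2/wild.

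**Figure D2:**
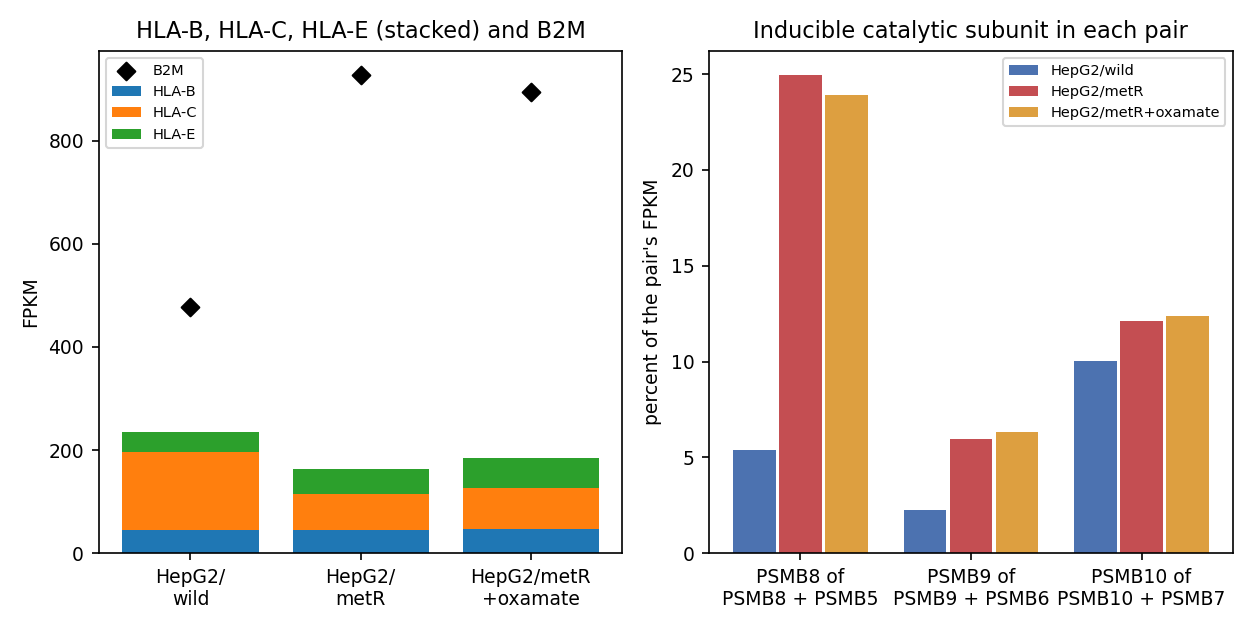
Left, FPKM of HLA-B, HLA-C and HLA-E stacked for each library, with B2M as a black diamond on the same linear axis. Right, FPKM of each inducible catalytic proteasome subunit as a percent of its own plus its constitutive counterpart's. The stack shrinks from 236 FPKM in HepG2/wild to 164 FPKM in HepG2/metR while B2M goes from 477 to 928 FPKM, and the PSMB8 share goes from 5.37% to 25.0%.

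TAP1 and TAP2 together encode the transporter that pumps peptides into the endoplasmic reticulum. TAP1 was at 19.0 FPKM in HepG2/wild, 22.2 FPKM in HepG2/metR and 25.1 FPKM with oxamate, log2 changes of 0.21 and 0.17. TAP2 was at 30.1, 41.9 and 37.3 FPKM, log2 changes of 0.47 and -0.16. Both were above the parental level in HepG2/metR, by less than 1.5-fold, and with oxamate they differed in sign. The ratio of TAP2 to TAP1 was 1.58, 1.89 and 1.49, so TAP2 was the more abundant of the pair throughout.

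TAPBP encodes tapasin, the chaperone that bridges the transporter and the waiting heavy chain. Its levels of 33.2, 38.9 and 42.9 FPKM in HepG2/wild, HepG2/metR and HepG2/metR+oxamate gave log2 changes of 0.22 and 0.14. Like HLA-E and TAP1 it was a little higher at each step.

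PSMB8 and PSMB9 encode catalytic subunits that replace PSMB5 and PSMB6 when a cell assembles immunoproteasomes, which shift the peptides made toward those class I binds. PSMB8 was at 28.1 FPKM in HepG2/wild, 40.4 FPKM in HepG2/metR and 33.6 FPKM with oxamate, log2 changes of 0.51 and -0.26. PSMB9, the least abundant of the 9 in every library, was at 5.14, 18.2 and 14.8 FPKM, log2 changes of 1.64 and -0.28. It stood above 30.8% of all genes kept in HepG2/wild and above 67.2% in HepG2/metR. PSMB9 was above HepG2/wild in both HepG2/metR libraries. These come from 1 labelled line, are set against the same parental library and are not replicates. The log2 change of PSMB9 to HepG2/metR ran from 1.63 to 1.82 over the alternative scalings, pseudocounts and filters.

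The constitutive partners moved separately. PSMB5 was 4.08-fold lower in HepG2/metR, at 495, 122 and 107 FPKM, so PSMB8 went from 5.37% of the PSMB8 and PSMB5 sum in HepG2/wild to 25.0% in HepG2/metR and 23.9% with oxamate. PSMB6 was at 223, 287 and 218 FPKM, and PSMB9 made up 2.25%, 5.95% and 6.35% of its pair. The third inducible subunit, PSMB10, was at 22.5, 24.3 and 19.8 FPKM, or 10.0%, 12.1% and 12.4% of its sum with PSMB7. All 3 inducible shares were higher in HepG2/metR than in HepG2/wild, and the constitutive subunit stayed the more abundant in every pair and library.

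In the RefSeq gene order TAP2, PSMB8, TAP1 and PSMB9 are direct neighbours, between HLA-DOB and HLA-DMB. Within this run of 4 genes the log2 changes to HepG2/metR were 0.47, 0.51, 0.21 and 1.64. TAP1 and PSMB9, which start back to back, therefore differed most from each other: the ratio of TAP1 to PSMB9 was 3.70 in HepG2/wild, 1.22 in HepG2/metR and 1.70 with oxamate. An antisense transcript listed as TAPSAR1, which RefSeq names PSMB8-AS1, was looked at after its values were seen and was at 0.762, 0.748 and 0.873 FPKM. Whether counting used strand is not given, so its reads and those of PSMB8 cannot be told apart with certainty.

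With oxamate none of the 9 genes passed 1.5-fold in either direction, beside 4.3% of all genes kept that were higher and 3.82% that were lower. Their median log2 change was 0.04, with 5 above 0 and 4 below. Over all genes kept the median was 0.02, with 6461 above 0 and 5563 below, and the quartiles were -0.18 and 0.23. HLA-E at 0.25, PSMB8 at -0.26 and PSMB9 at -0.28 lay just outside those quartiles. The 3 heavy chains, TAP1 and TAPBP were on the higher side, and B2M, TAP2, PSMB8 and PSMB9 on the lower. Under scaling to equal FPKM totals B2M and TAP2 turned to the higher side of 0, at 0.12 and 0.01. That scaling moved the median of all genes kept to 0.168, so both stayed below it. This comparison and the one with HepG2/wild share the HepG2/metR library, and are not independent of each other.

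**Figure D3:**
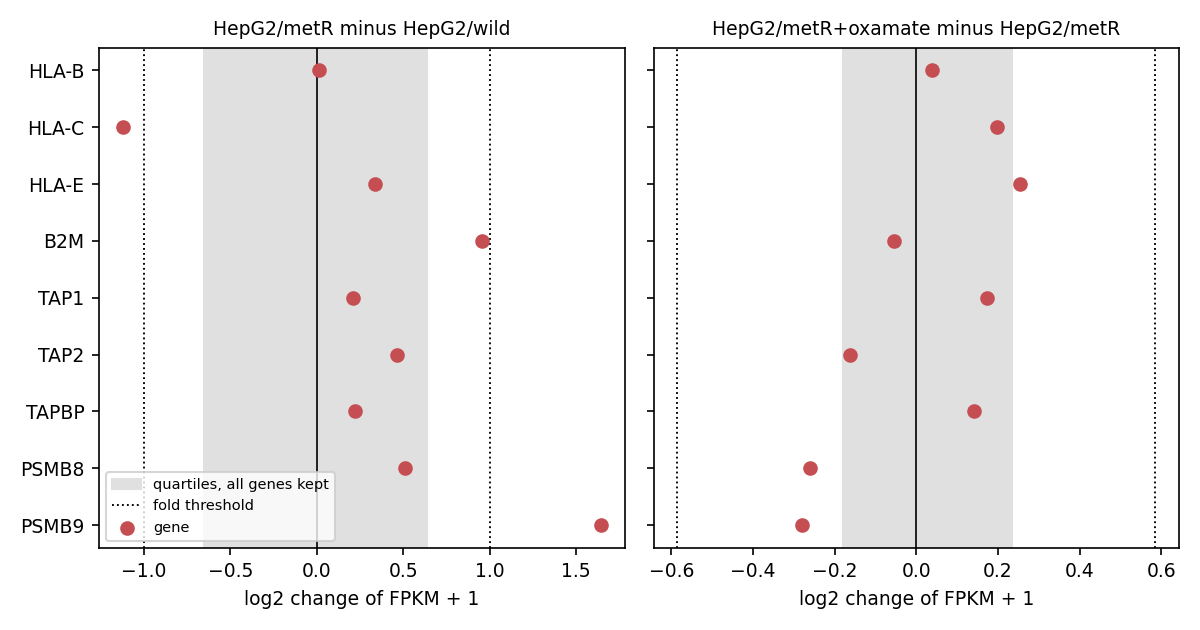
Log2 change of FPKM + 1 for each of the 9 genes, HepG2/metR minus HepG2/wild on the left and HepG2/metR+oxamate minus HepG2/metR on the right, on axes of different width. Dotted lines mark 2-fold and 1.5-fold, and the grey band runs between the quartiles of all genes kept. HLA-C at -1.12 and PSMB9 at 1.64 lie past the lines on the left, and no gene does on the right.

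The order of the levels among the 9 was much the same in the 3 libraries. B2M ranked first, HLA-C second, TAP1 eighth and PSMB9 ninth in each, and the middle ranks, taken by HLA-B, HLA-E, TAP2, TAPBP and PSMB8 between 28.1 and 59.5 FPKM, changed places. Without replicates, no neighbours in that order can be said to differ beyond their spread. The genes whose pair of log2 changes lay nearest to the median changes of the 9, among 6543 genes with a mean of at least 10 FPKM, were BTBD1, PKN2, NADSYN1, RBM7 and CCDC6. Their distances from it were 0.00766, 0.00925, 0.0143, 0.0143 and 0.0149 log2 units over the 2 changes.

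The other steps of peptide handling were read from lists of pathway genes, described by counts. Beside them, over all genes kept, 16.6% were at least 2-fold higher and 17.6% at least 2-fold lower in HepG2/metR. With oxamate 4.3% were at least 1.5-fold higher and 3.82% at least 1.5-fold lower. No list here or further below was tested against these shares, and a count near them sets nothing apart. Of 10 peptide loading and trimming genes, 1 was at least 2-fold higher and 1 at least 2-fold lower in HepG2/metR, with a median log2 change of -0.44. The higher one was ERAP2, an aminopeptidase that trims peptides in the endoplasmic reticulum, at 6.05, 20.6 and 26.0 FPKM. The lower one was SEC61B, a translocon subunit, with a log2 change of -1.14. With oxamate 2 of the 10 were at least 1.5-fold lower: CALR, encoding the lectin chaperone calreticulin of the loading complex, at 910, 586 and 342 FPKM, and HSPA5, encoding the chaperone BiP, at 522, 280 and 147 FPKM. Tapasin, which works beside calreticulin, had its highest value in that library.

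Of 4 other interferon-inducible proteasome genes, 2 were below the parental level by 2-fold or more in HepG2/metR and none above it by as much. These were PSME1 at 293, 82.9 and 84.1 FPKM and PSME2 at 304, 104 and 76.1 FPKM, the subunits of the PA28 cap that opens the proteasome. PSMB8 and PSMB9 thus had higher values in HepG2/metR while the cap genes had lower ones. Of 5 constitutive counterparts, 2 were at least 2-fold lower, PSMB5 and the activator gene PSME4, and 0 of the 4 and 0 of the 5 passed 1.5-fold with oxamate. None of 6 cytosolic peptidase genes passed either threshold, with medians of 0.52 and -0.11. Over all genes kept, 16.6% were at least 2-fold higher and 17.6% at least 2-fold lower in HepG2/metR. With oxamate 4.3% passed 1.5-fold upward and 3.82% downward.

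**Figure D4:**
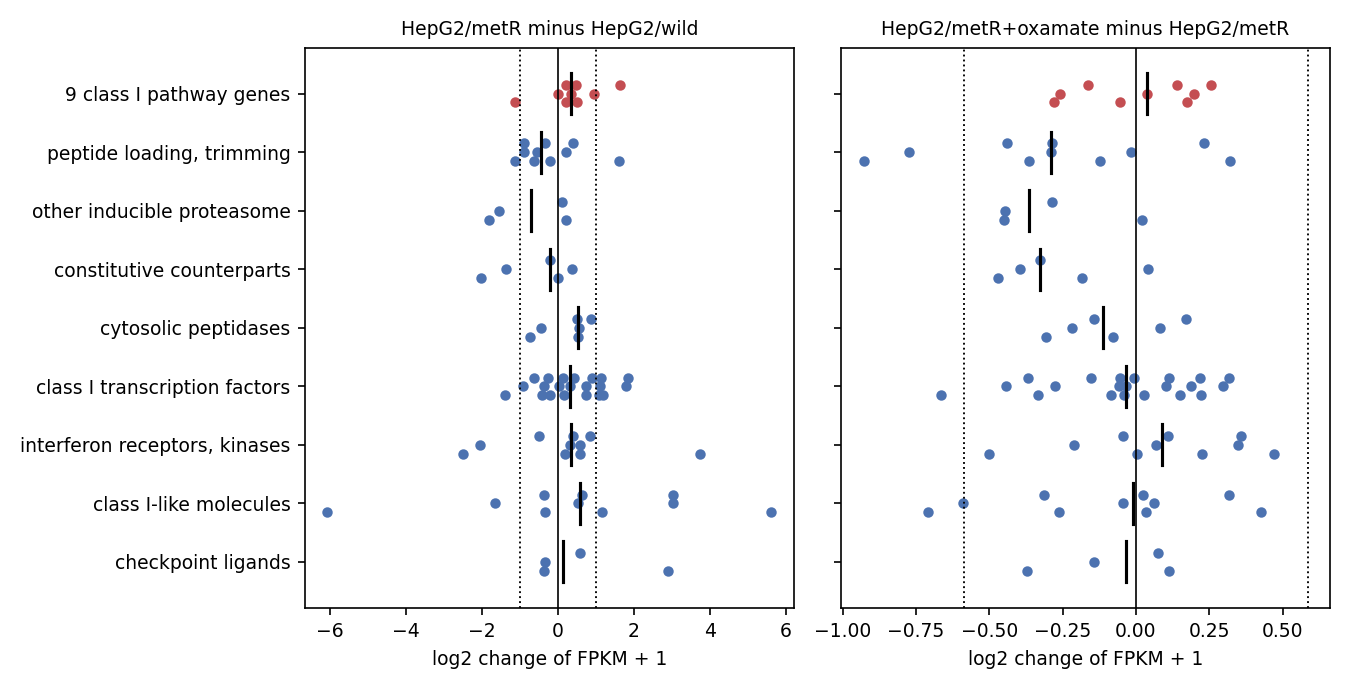
Log2 change of FPKM + 1 for each gene kept, by gene list, HepG2/metR minus HepG2/wild on the left and HepG2/metR+oxamate minus HepG2/metR on the right, on axes of different width. Each dot is a gene, red for the 9 class I pathway genes, vertical bars are list medians and dotted lines mark 2-fold and 1.5-fold. The 9 genes span -1.12 to 1.64 on the left and -0.28 to 0.25 on the right.

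Kept were 21 transcription factor genes known to act on class I promoters or to silence them. Of these, 6 were at least 2-fold higher and 1 at least 2-fold lower in HepG2/metR, beside 16.6% and 17.6% of all genes kept. The 6 were the NF-kappa-B genes NFKB2 (9.04, 35.4 and 27.2 FPKM) and RELB (log2 change 1.19), the interferon regulatory factor gene IRF7 (0.0245, 2.56 and 2.46 FPKM), RFX5 (1.09), NFYB (1.11) and the Polycomb gene SUZ12 (1.13). IRF7 was under 1 FPKM in HepG2/wild and passed the filter through the HepG2/metR libraries, where it was high. The lower gene was IRF9, at 13.1, 4.37 and 5.26 FPKM, which encodes the DNA-binding part of the type I interferon response complex. NLRC5, encoding the class I transactivator, was under the filter, at 1.36, 0.351 and 0.514 FPKM. IRF1 was at 2.69, 5.86 and 4.45 FPKM, short of 2-fold on the deposited scale. With oxamate EZH2, encoding a Polycomb methyltransferase, was the 1 gene past 1.5-fold, with a log2 change of -0.67. Of all genes kept, 3.82% were lower by at least 1.5-fold.

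Of 10 interferon receptor, kinase and feedback genes kept, 1 was at least 2-fold higher and 2 at least 2-fold lower in HepG2/metR. The shares over all genes kept were 16.6% and 17.6%. The receptor gene IFNGR1 was lower, at 74.7, 12.4 and 17.6 FPKM, as was USP18 (log2 change -2.05). The inhibitor gene SOCS3 was higher, at 0.388, 17.5 and 12.0 FPKM, and passed the filter through the HepG2/metR libraries. SOCS1, another inhibitor gene, was under the filter and went the other way, at 2.17, 0.305 and 0 FPKM. The receptor gene IFNLR1, also under the filter, was at 2.87, 0.00796 and 0.0755 FPKM. None of the 10 kept passed 1.5-fold with oxamate. None of 10 interferon genes reached the filter in these libraries, and their summed level was at most 0.0534 FPKM.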

How the data were processed

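RNA was extracted with Trizol and sequenced on an Illumina NextSeq instrument, with 1 library per condition (n = 1). The authors deposited 1 value per gene symbol and library on a log2 scale. The unit, log2(FPKM + 1), was inferred from the values, and 100% of values above 1 back-transformed to at most 6 significant digits (tolerance 1e-08). The submitters' processing notes name STAR 2.5.1b, FastQC 0.11.5, Cufflinks 2.2.1 and hg19 without roles. Annotation, filters and strand use are not given in the sources used here.

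Values were used as deposited. Genes with a mean of at least 1 FPKM were kept (12210). Over all rows, 28 carried a date in place of a symbol and were not named. A log2 change is a difference of deposited values, with its pseudocount of 1, and understates changes of low genes. Thresholds were 2-fold for HepG2/metR and 1.5-fold for oxamate. Depth in reads is unknown. From the steps of the lowest values, HepG2/metR and HepG2/metR+oxamate were 1.21 and 1.24 times as deep as HepG2/wild. The 9 genes and the gene lists were chosen with earlier results of these data known. Named were all 9 genes, list genes past a threshold or directly paired with or regulating one of the 9, and the 5 genes nearest to the median pattern. Alternatives were other pseudocounts, scalings, filters and thresholds. The 2-fold counting rule was tried on parental values with known rises put in, and the other steps were not tested that way. Promoters and gene order came from RefSeq (GRCh38.p14), with no coordinates moved between builds. A few genes of the lists are not reported here. Python 3.11, numpy 2.4.6, pandas 2.3.3, biopython 1.88 and matplotlib 3.10.9 were used.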

Additional observations from a re-analysis of the deposited data

How the results depend on the processing

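Signs of the log2 changes to HepG2/metR held for 9 of 9 class I pathway genes under the 3 alternative scalings, and signs with oxamate for 7 of 9. The other pseudocounts and filters cannot turn the sign of a gene. The count of these genes past 2-fold upward, 1 as reported, was 2 with libraries scaled to equal FPKM totals, 2 under upper-quartile scaling and 2 at a 1.5-fold threshold. B2M was the added gene. The count at least 2-fold lower, 1 as reported, was 0 under upper-quartile scaling. No setting brought any of the 9 past 1.5-fold with oxamate.

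Over all genes kept, equal totals moved the median change with oxamate to 0.168 and upper-quartile scaling moved that to HepG2/metR to 0.150, so directions under these are relative to those shifts. Counts with oxamate, 525 higher and 466 lower, became 1221 and 196 with equal totals, and 66 and 64 at 2-fold. The higher count alone became 1018 with a pseudocount of 0.1, 1111 with none and 271 at a mean of at least 5 FPKM. Counts to HepG2/metR, 2021 higher and 2147 lower, became 1249 and 1428 at that filter, and 3262 and 3301 at 1.5-fold. These filters and thresholds change which genes can be counted. For the scalings and pseudocounts the cause was not tested. With 1 library per condition no replicate could be left out. No paired analysis was possible because no condition has a second library. Depth in reads is unknown and sets no limit that can be given.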

Other observations

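Kept were 10 class I-like genes, whose proteins share the class I fold. Of these, 4 were at least 2-fold higher and 2 at least 2-fold lower in HepG2/metR, beside 16.6% and 17.6% of all genes kept. The NKG2D ligand genes ULBP1 (0.0418, 7.57 and 4.24 FPKM in HepG2/wild, HepG2/metR and HepG2/metR+oxamate), ULBP2 (0.0725, 7.80 and 8.01 FPKM) and ULBP3 (0.718, 2.84 and 3.01 FPKM) were higher, as was PROCR, the endothelial protein C receptor gene, at 1.36, 115 and 95.5 FPKM. FCGRT, encoding the heavy chain of the neonatal Fc receptor, which also pairs with B2M, was lower, at 76.2, 23.3 and 31.7 FPKM, as was AZGP1, with a log2 change of -6.06. With oxamate ULBP1 and MICA, another NKG2D ligand gene, were at least 1.5-fold lower, with log2 changes of -0.71 and -0.59. Of all genes kept, 3.82% were lower by as much. ULBP1, ULBP2 and ULBP3 were under 1 FPKM in HepG2/wild and AZGP1 in both HepG2/metR libraries, so these genes passed the filter through the libraries where they were high. The part of the lower hepatocyte markers in these differences was not tested.

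Of 14 MHC class II genes 2 were kept. CD74, encoding the invariant chain, was at 54.1, 0.218 and 0.0917 FPKM, and HLA-DMA, encoding a class II peptide exchange factor, had a log2 change of 1.31. Among checkpoint ligand genes 4 of 10 were kept, and CD47, encoding the ligand that restrains phagocytosis, was at 0.960, 13.7 and 14.8 FPKM. CD74 was under 1 FPKM in both HepG2/metR libraries, and HLA-DMA and CD47 were in HepG2/wild. All of these passed the filter through the libraries where they were high. Of 59 kept genes of the MHC region outside these lists, 5 were at least 2-fold higher and 10 at least 2-fold lower in HepG2/metR. Of all genes kept, 16.6% were higher and 17.6% lower by as much. The median log2 change of the 59 was -0.23. The complement genes C2 and CFB, made by hepatocytes, had changes of -6.52 and -6.44. Both were under 1 FPKM in the HepG2/metR libraries and passed the filter through HepG2/wild. With oxamate 0 of the 59 were at least 1.5-fold higher and 5 at least 1.5-fold lower, beside 4.3% and 3.82% of all genes kept.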
